A study of Mus musculus with 21 samples.

Results

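The steroid-metabolising genes described here are 10 of the 22520 genes in a table of mouse liver expression: the sulfotransferases Sult2a1 and Sult2a2, the P450 genes Cyp17a1 and Cyp21a1, the hydroxysteroid dehydrogenases Hsd3b2, Hsd3b3, Hsd3b5, Hsd11b1 and Hsd17b2, and the reductase Srd5a1. They were picked by gene symbol with results of these livers already known, so the differences between double-knockout and WT liver are given as a description and are not tested. WT mice carried Ezh2fl/fl without Cre, E1KO mice were Ezh1-/-, E2KO mice were Ezh2fl/fl with Alb-Cre (Cre driven by the albumin promoter, which acts in hepatocytes), and DKO mice combined both losses, all on a mixed 129SV::FVB/N::C57BL/6 background. Each genotype was sampled at 2 months, at 8 months, and at 3 months after intraperitoneal CCl4, a hepatotoxin, given at 2 ml/kg 2 times a week for 2 weeks, with tissue taken 24 h after the last dose. Libraries came from total RNA of whole liver, and each of the 12 groups has 1 FPKM value per gene, into which the authors had combined 3 replicates, or 2 at 8 months. FPKM scales the fragments of a gene to its length and to the mapped fragments of the library. The spread between animals and the sequencing depth are therefore unknown, and no value carries an SD.

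Sulfotransferases of the SULT2A family add a sulfate group to hydroxysteroids such as dehydroepiandrosterone and to bile acids, which makes them more soluble. Hydroxysteroid dehydrogenases and steroid reductases interconvert hydroxyl and keto groups or remove double bonds, and so set whether a steroid is active at its receptor. In mouse liver several of these genes are known for a sex bias: Sult2a1 is a female-biased gene and Hsd3b5 a male-biased gene. PRC2, the Polycomb complex that methylates histone H3 to leave the repressive mark H3K27me3, can use either Ezh1 or Ezh2 as its enzyme.

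Column totals lay between 531761 and 674119 FPKM. Ezh1 was 1.96 to 2.50 FPKM in the 6 columns with an intact Ezh1 gene and 0.06 to 0.27 in 5 of the 6 Ezh1-/- columns. The exception was the column labelled E1KO at 8 months, with 0.88 FPKM of Ezh1, which also held 486 FPKM of 12 summed skeletal muscle markers against 1.27 to 2.04 in the other 11 columns. Ezh2 was low in untreated liver of every genotype, at 0.74 to 1.27 FPKM, and whole-liver RNA also holds cells without Cre, so it does not check the Ezh2 labels there. With CCl4 it was 5.68 in WT, 4.68 in E1KO, 3.92 in E2KO and 2.51 in DKO. Xist, which female cells express, was 0.01 to 0.03 FPKM in all 12 columns. All 10 steroid genes passed the limit for testing, 1 FPKM in at least 2 columns, but Sult2a1 and Sult2a2 passed it only through the DKO columns.

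**Figure D1:**
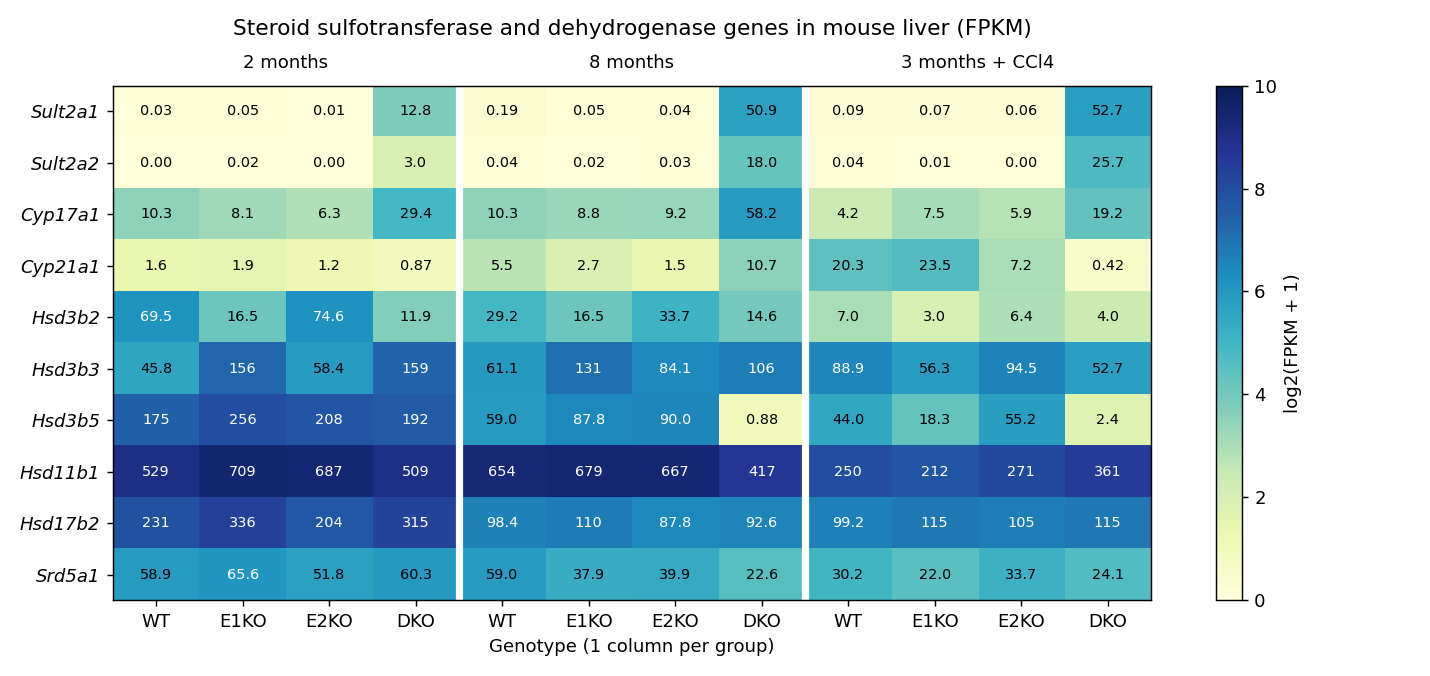
Expression of the 10 genes (rows) in the 12 groups (columns, 4 genotypes in each of 3 conditions), with FPKM printed in each cell and log2(FPKM + 1) as colour; there is 1 value per group and no error. Sult2a1 reached 12.8 to 52.7 FPKM in the DKO columns and at most 0.19 in the other 9, while Hsd3b5 was 0.88 in DKO liver at 8 months and 2.38 with CCl4.

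Both sulfotransferase genes were at or near 0 in the 9 WT, E1KO and E2KO columns and well above 0 in the 3 DKO columns. Sult2a1, which sulfonates dehydroepiandrosterone and bile acids, was 12.8 FPKM in 2-month DKO liver, 50.9 in 8-month liver and 52.7 after CCl4. In WT it was 0.03, 0.19 and 0.09 FPKM in the same order, in E1KO 0.05, 0.05 and 0.07, and in E2KO 0.01, 0.04 and 0.06. The lowest DKO column thus lay far above the highest of the other 9. Sult2a2, its near-identical neighbour, was 2.96, 18.0 and 25.7 FPKM in DKO and between 0 and 0.04 in the other 9 columns. On the log2(FPKM + 1) scale, DKO exceeded WT by 3.74, 5.45 and 5.62 for Sult2a1 and by 1.99, 4.19 and 4.68 for Sult2a2, taking the conditions in that order. With WT at or close to 0, these differences understate the change and no fold is given.

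The DKO levels themselves were not alike. Sult2a1 was 3.99 times as high in DKO at 8 months as at 2 months and 4.13 times as high with CCl4, and Sult2a2 was 6.08 and 8.68 times as high. Sult2a2 amounted to 23.2% of Sult2a1 in 2-month DKO liver, 35.4% in 8-month liver and 48.8% after CCl4. The copies are so alike that the authors' counting may have split reads between them, so the division between the 2 genes is uncertain. A limma model with DKO-by-condition terms was also fitted. Its DKO difference, here and below, is that of DKO from the mean of WT, E1KO and E2KO, not from WT alone. On the log2(FPKM + 1) scale it was larger than at 2 months by 1.83 at 8 months and 1.90 with CCl4 for Sult2a1. For Sult2a2 it was larger by 2.23 and 2.74. That model called both genes in both comparisons, but for them the call is no test. They entered the fit only through the DKO columns, each DKO group is 1 column, and the error comes from WT, E1KO and E2KO, where both genes are near 0. With a pseudocount of 0.1 in place of 1 the adjusted p was 0.9997 for Sult2a1 and 0.608 for Sult2a2 at 8 months, and 0.490 and 0.210 after CCl4. These differences are therefore given as a description. Of the 11394 genes tested, the model called 0.184% higher and 0.0614% lower at 8 months, and 0.219% and 0.0702% with CCl4, and it called none of the other 8 members.

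Most other genes of the cluster were also higher in the DKO columns, with 1 exception. In RefSeq's order Sult2a5, Sult2a2, Sult2a1, Sult2a4, Sult2a3 and Sult2a6 stand side by side, followed by 2810007J24Rik (now Sult2a8) and Sult2a7. The summed level of Sult2a1 to Sult2a6 was 18.4, 86.7 and 94.0 FPKM in the 3 DKO columns and 0.01 to 0.26 in the other 9. Sult2a5 was 1.23, 8.44 and 6.90 FPKM in DKO and at most 0.02 elsewhere, and Sult2a4 and Sult2a6 were 0.62 to 5.36 in DKO and at most 0.04 elsewhere. Sult2a3, which failed the limit for testing, reached 0.87 FPKM in DKO with CCl4. Whether reads of Sult2a1 or Sult2a2 were also assigned to these related genes was not tested, so the level of each of Sult2a3 to Sult2a6 is uncertain. Sult2a7 was 11.2, 4.48 and 6.71 FPKM in DKO against 0.21 to 1.91 elsewhere, so it was highest at 2 months, unlike the 6 genes before it. 2810007J24Rik was instead lower in DKO than in WT: it was abundant in WT, at 486, 588 and 144 FPKM, and was 391, 160 and 80.1 in DKO. It was 477, 493 and 59.1 in E1KO and 555, 438 and 162 in E2KO. DKO was thus the lowest genotype in untreated liver, but E1KO was the lowest with CCl4. The flanking genes Bsph1 and Vmn1r90 were near 0 in every column.

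**Figure D2:**
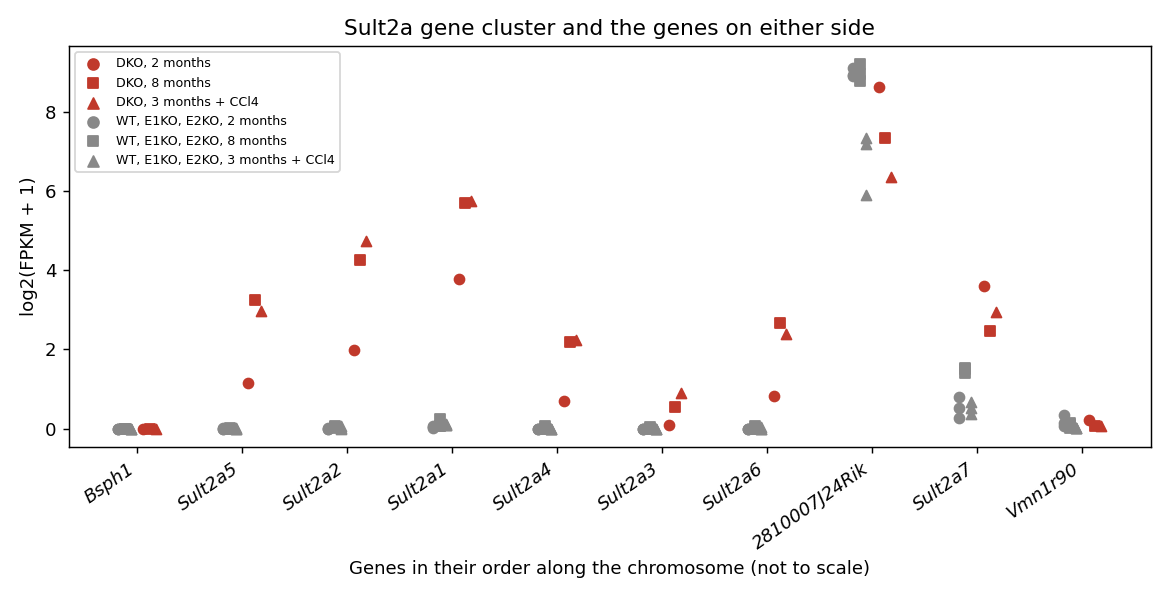
Level of the Sult2a genes and the genes on either side (x axis, in chromosomal order, not to scale) as log2(FPKM + 1) (y axis), 1 point per column, with DKO in red and the other 3 genotypes in grey and the shape giving the condition. The 6 genes from Sult2a5 to Sult2a6 sit near 0 in the grey columns and rise above it in DKO, and 2810007J24Rik is high in all columns and lower in DKO at 8 months (160 FPKM) than in WT (588 FPKM).

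Promoter sequence could be compared for 4 genes of this run, not including Sult2a1 and Sult2a2, and a stretch of each is shown for the bases they share. RefSeq promoter windows (250 bases before the start, assembly GRCm38.p6) were at hand for Sult2a3, Sult2a4, Sult2a5 and Sult2a6, whose pairwise identity over the aligned bases was 81.2% to 92.2%. The longest run of bases common to all 4 windows was the 15 bases GTTAATGATTTTTTA. Searched on both strands, it occurred in 4 of 32851 windows (0.0122%), which are these 4, and in neither window of Sult2a8. Each stretch below is read 5′ to 3′ on the gene's strand, with the shared run in capitals. The stretches lie at chr7:14123070-14123139 (minus strand, Sult2a3), chr7:13989666-13989735 (minus strand, Sult2a4), chr7:13623899-13623966 (plus strand, Sult2a5) and chr7:14254912-14254981 (minus strand, Sult2a6).
Sult2a3: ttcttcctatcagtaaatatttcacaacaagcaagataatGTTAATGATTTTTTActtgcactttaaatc
Sult2a4: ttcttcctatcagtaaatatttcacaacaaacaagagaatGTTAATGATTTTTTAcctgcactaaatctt
Sult2a5: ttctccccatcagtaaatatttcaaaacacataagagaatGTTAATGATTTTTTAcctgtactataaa
Sult2a6: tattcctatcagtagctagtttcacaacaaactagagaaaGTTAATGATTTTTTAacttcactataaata
The run was found by comparing these windows and describes their letters only. The 4 genes with a printed window had DKO maxima of 0.87 to 8.44 FPKM, below those of Sult2a1 and Sult2a2.

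Cyp17a1 and Cyp21a1 encode P450 enzymes of steroid hormone synthesis, the former a hydroxylase and lyase of pregnanes and the latter the 21-hydroxylase. Cyp17a1 was 29.4 FPKM in 2-month DKO liver, 58.2 in 8-month liver and 19.2 after CCl4. In WT it was 10.3, 10.3 and 4.16 FPKM, in E1KO 8.10, 8.85 and 7.49, and in E2KO 6.31, 9.16 and 5.88. All 3 DKO columns lay above the other 9, and DKO was 2.84, 5.67 and 4.61 times WT in the same order. With Sult2a1 and Sult2a2, that makes 3 of the 10 genes with every DKO column above the rest, a pattern 1.25% of tested genes showed, and 0 with every DKO column below (1.02% of tested genes). The genes were chosen with this contrast known, so nothing is read from the count. Cyp17a1 was 1.98 times as high in 8-month DKO liver as in 2-month DKO liver. The DKO difference in Cyp17a1 was not called larger at 8 months than at 2 months (0.77 ± 0.44, adjusted p = 0.9999) or with CCl4 (-0.15 ± 0.44, adjusted p = 0.959). Its neighbours Sfxn2 (9.29 to 14.8 FPKM) and As3mt (15.6 to 28.7 FPKM) each varied less than 2-fold over the 12 columns.

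Cyp21a1 changed direction with the condition. In 2-month liver it was 1.55 FPKM in WT, 1.86 in E1KO, 1.24 in E2KO and 0.87 in DKO. In 8-month liver it was 5.54, 2.66, 1.5 and 10.7 in the same order, so DKO was the highest column. With CCl4 it was 20.3, 23.5, 7.17 and 0.42, so DKO was the lowest by a factor of 48.3 against WT. The change of the DKO difference with CCl4 was -3.07 ± 0.60 and was not called (adjusted p = 0.204), nor was that at 8 months (2.02 ± 0.60, adjusted p = 0.787). C4a, the complement gene beside it, was also highest in DKO at 8 months (26.8 FPKM against 7.29 to 13.6 in the other genotypes) and lowest in DKO with CCl4 (0.69 against 1.47 to 2.05). Unlike Cyp21a1, C4a was no higher with CCl4 than at 2 months in WT, at 2.05 against 3.40 FPKM. C4b on the other side stayed between 82.4 and 150 FPKM.

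Of the 10 listed adrenocortical markers, 6 taken here as defining were low. These genes, Star, Cyp11a1, Cyp11b1, Cyp11b2, Nr5a1 and Mc2r, were at most 0.63 FPKM in any column, and 5 of these 6 were at most 0.04. Listed Hsd3b1 was 2.20, 0.08 and 0.80 FPKM in DKO against 0.02, 0.01 and 0.29 in WT, in the order 2 months, 8 months and CCl4. Akr1b7 was 0.84, 1.06 and 0.85 in DKO against 0.44, 0.22 and 0.53 in WT, and 0.98 in E1KO with CCl4. Fdx1 and Mrap were lower in DKO than in WT at 8 months and with CCl4. None of the 10 listed adrenocortical markers was at 0 in all columns; their summed level was 146 to 262 FPKM in DKO and 166 to 299 in the rest, nearly all of it Fdx1 and Mrap. Of 7 Leydig and gonad markers, whose sum was at most 4.23 FPKM, 1 was at 0 throughout.

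**Figure D3:**
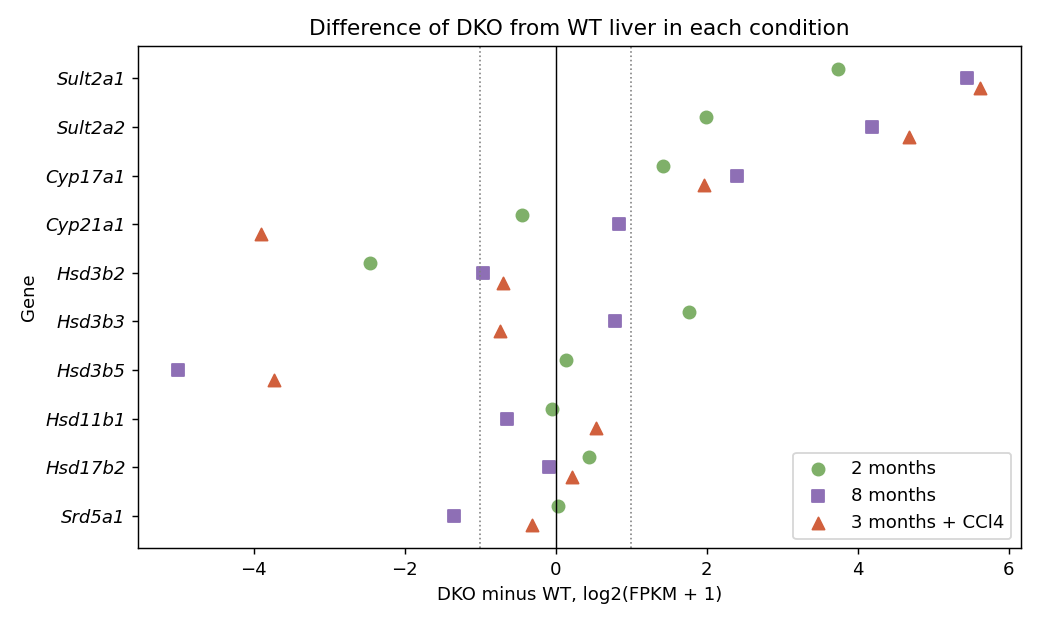
Difference between DKO and WT in log2(FPKM + 1) (x axis) for each of the 10 genes (y axis) in 3 conditions, 1 point each and no error, with dotted lines at a 2-fold difference on that scale. Sult2a1, Sult2a2 and Cyp17a1 lie to the right in all 3 conditions, and Hsd3b5 lies near 0 at 2 months (0.14) and far to the left in the other conditions (-3.73 with CCl4).

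On that scale 4 genes were at least 2-fold higher in DKO than in WT at 2 months and 1 lower, against 1.99% and 1.48% of all tested genes. At 8 months 3 were higher and 2 lower (2.86% and 1.22% of tested genes), and with CCl4 3 were higher and 2 lower (2.93% and 2.47%). Sult2a1, Sult2a2 and Cyp17a1 were higher in 3 of 3 conditions, as 0.456% of tested genes were. No gene of the 10 was lower in all 3, as 0.176% of tested genes were. Nothing is read from these counts, since the genes were chosen with this contrast known and Sult2a1 and Sult2a2 may share reads.

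The 3-beta-hydroxysteroid dehydrogenase genes behaved in different ways. Hsd3b5, a male-biased gene of mouse liver whose enzyme acts as a ketosteroid reductase, was similar in all genotypes at 2 months and nearly gone from DKO liver later. The 2-month values were 175 FPKM in WT, 256 in E1KO, 208 in E2KO and 192 in DKO. The 8-month values were 59.0, 87.8, 90.0 and 0.88 in the same order, and those after CCl4 were 44.0, 18.3, 55.2 and 2.38. DKO was 67.0-fold below WT at 8 months and 18.5-fold below with CCl4, and in both conditions it lay below all other genotypes. The change of the DKO difference from 2 to 8 months was -5.25 ± 0.76 and missed the threshold (adjusted p = 0.0896), as did that with CCl4 (-3.30 ± 0.76, adjusted p = 0.268).

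Hsd3b2 and Hsd3b3 are adjacent genes for dehydrogenase-isomerases, and neither was called for E1KO against WT. Their columns fell into pairs by Ezh1 genotype, in the same order in every condition for Hsd3b2 only. In 2-month liver Hsd3b2 was 69.5 FPKM in WT and 74.6 in E2KO against 16.5 in E1KO and 11.9 in DKO. In 8-month liver it was 29.2 and 33.7 against 16.5 and 14.6, and with CCl4 7.05 and 6.42 against 2.98 and 3.95. Both Ezh1-/- columns were below both columns with intact Ezh1 in each condition, as they were for 3.91% of tested genes. E1KO was 4.21-, 1.77- and 2.37-fold below WT in the same order. Over the 3 conditions the limma difference of E1KO from WT was -1.27 ± 0.35, with an unadjusted p of 0.00553 and an adjusted p of 0.741. Without the 8-month E1KO column that held muscle genes it was -1.42 ± 0.41 (adjusted p = 0.584).

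Hsd3b3 went the opposite way in untreated liver. It was 45.8 FPKM in WT and 58.4 in E2KO against 156 in E1KO and 159 in DKO in 2-month liver, and 61.2 and 84.1 against 131 and 106 in 8-month liver. With CCl4 the order turned, to 88.9 and 94.5 against 56.3 and 52.7. The difference of E1KO from WT over the 3 conditions was 0.73 ± 0.47 and was not called (adjusted p = 0.933). Hsd3b2 made up 60.3% of the summed Hsd3b2 and Hsd3b3 level in WT and 56.1% in E2KO at 2 months, and 9.57% in E1KO and 6.97% in DKO. With CCl4 the share was 5.03% to 7.35% in all 4 genotypes. The sum at 2 months was 115 and 133 FPKM with intact Ezh1 and 173 and 171 without it. The sequences of the 2 genes are similar and reads may have been assigned to either, so part of the split between them is uncertain. Among all 10 genes, the Ezh1-/- pair lay wholly above the intact pair for 5 at 2 months (24.2% of tested genes), 1 at 8 months (12.4%) and 2 with CCl4 (20.3%). It lay wholly below for 1 (30.7%), 2 (17.6%) and 4 (30.9%) in that order, and above in all conditions for 0 (2.56%). None of the 10 genes lies on the chromosome of Ezh1.

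**Figure D4:**
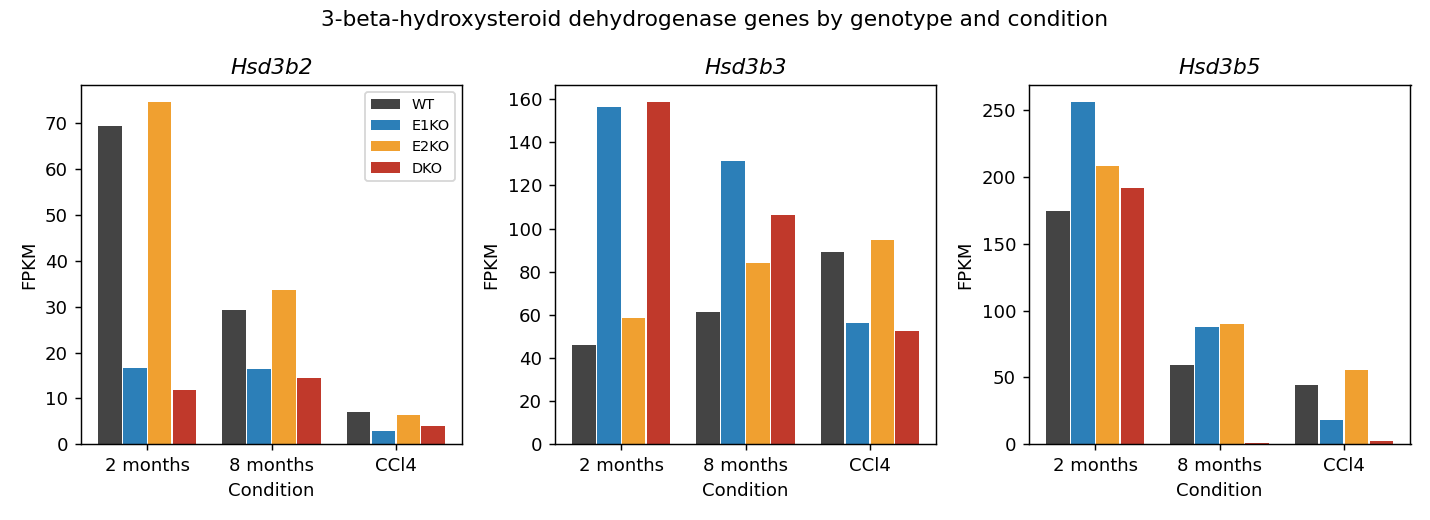
FPKM (y axis, from 0) of Hsd3b2, Hsd3b3 and Hsd3b5 in 3 conditions (x axis), with a bar for each of the 4 genotypes and 1 value per bar, so no error is shown. At 2 months Hsd3b2 is 69.5 and 74.6 FPKM in WT and E2KO and 16.5 and 11.9 in E1KO and DKO, Hsd3b3 has the reverse order, and Hsd3b5 is nearly absent from DKO at 8 months (0.88 FPKM).

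The upstream sequences of the 3 genes are shown because the genes stand in a row yet differ in level by genotype. Each is the 250 bases before the RefSeq start (assembly GRCm38.p6, read 5′ to 3′ on the gene's strand): chr3:98724544-98724793 for Hsd3b2, chr3:98763129-98763378 for Hsd3b3 and chr3:98645535-98645784 for Hsd3b5, all on the minus strand. Capitals mark a run of 24 bases that Hsd3b3 and Hsd3b5 share.
Hsd3b2: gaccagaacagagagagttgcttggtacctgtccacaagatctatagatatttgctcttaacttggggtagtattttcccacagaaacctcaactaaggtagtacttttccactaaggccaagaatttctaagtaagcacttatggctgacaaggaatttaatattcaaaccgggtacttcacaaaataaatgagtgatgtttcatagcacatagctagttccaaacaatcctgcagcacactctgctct
Hsd3b3: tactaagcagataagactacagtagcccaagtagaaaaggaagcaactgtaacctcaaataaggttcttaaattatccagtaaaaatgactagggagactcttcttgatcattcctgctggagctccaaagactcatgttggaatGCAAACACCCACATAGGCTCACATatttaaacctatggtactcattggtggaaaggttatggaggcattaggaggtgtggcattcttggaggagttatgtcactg
Hsd3b5: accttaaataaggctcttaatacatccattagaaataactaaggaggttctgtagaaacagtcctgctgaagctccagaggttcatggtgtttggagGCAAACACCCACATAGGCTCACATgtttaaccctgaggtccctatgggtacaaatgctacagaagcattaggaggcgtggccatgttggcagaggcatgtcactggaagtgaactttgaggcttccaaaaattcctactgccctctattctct
The run occurs in 3 of 32851 windows, 2 of Hsd3b3 and 1 of Hsd3b5, and not in that of Hsd3b2. Hsd3b3 and Hsd3b5 aligned over 204 bases with 154 identical (75.5%), whereas Hsd3b2 and Hsd3b3 aligned over 15 bases. For Hsd3b3 only 1 of its 2 windows was printed and aligned. In 8-month DKO liver Hsd3b5 was 0.88 FPKM against 59.0 in WT, and Hsd3b3 was 106 against 61.2. A link between upstream sequence and level was not tested. Promoter windows were matched for 5 of the 10 genes.

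The 3 remaining genes are abundant in liver, and Srd5a1 at 8 months was the only case among them of a difference of at least 2-fold between DKO and WT. Hsd11b1, which regenerates active glucocorticoid from its keto form, was the most abundant of the 10 in each WT column. It was 529 FPKM in WT, 709 in E1KO, 687 in E2KO and 509 in DKO in 2-month liver, then 654, 679, 667 and 417 in 8-month liver, and 250, 212, 271 and 361 after CCl4. DKO was the lowest column in untreated liver and the highest with CCl4. Hsd17b2, which oxidises estradiol and testosterone to their less active keto forms, was 231, 336, 204 and 315 FPKM in 2-month liver in the same order, 98.4, 110, 87.8 and 92.6 in 8-month liver, and 99.2, 115, 105 and 115 after CCl4. No 8-month or CCl4 column reached the lowest 2-month column. Srd5a1, a 5-alpha-reductase that converts testosterone to dihydrotestosterone, was 58.9, 65.6, 51.8 and 60.3 FPKM in 2-month liver, 59.0, 37.9, 39.9 and 22.7 in 8-month liver, and 30.2, 22.0, 33.7 and 24.1 after CCl4. DKO at 8 months was 2.61-fold below WT for Srd5a1.

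Several of the abundant genes were lower after CCl4. Of the 10 genes, 5 fell with CCl4 against 2 months in the additive limma fit and 0 rose, where 24.5% of all tested genes fell and 33.4% rose. The comparison sets CCl4-treated mice of 3 months against untreated mice of 2 months, so age and toxin cannot be told apart. Hsd3b5 fell by 3.36 on the log2 scale (SE 0.84, adjusted p = 0.00818), Hsd3b2 by 2.50 (SE 0.30, adjusted p = 0.000202) and Hsd17b2 by 1.29 (SE 0.12, adjusted p = 7.51e-05). Hsd11b1 fell by 1.16 (SE 0.22, adjusted p = 0.00225) and Srd5a1 by 1.09 (SE 0.22, adjusted p = 0.00261). For each of these 5 all 4 CCl4 columns lay below all 4 columns at 2 months, as they did for 22.8% of tested genes, and for 0 of the 10 did they all lie above (29.6%). The spread in this fit is the departure of the 12 values from additive genotype and condition terms, so it is not a spread between animals. When Hsd3b2 and Hsd3b3 were summed to allow for shared reads, an alternative chosen after seeing the data, the fall was 0.94 in place of 2.50 (adjusted p = 0.0105).

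**Figure D5:**
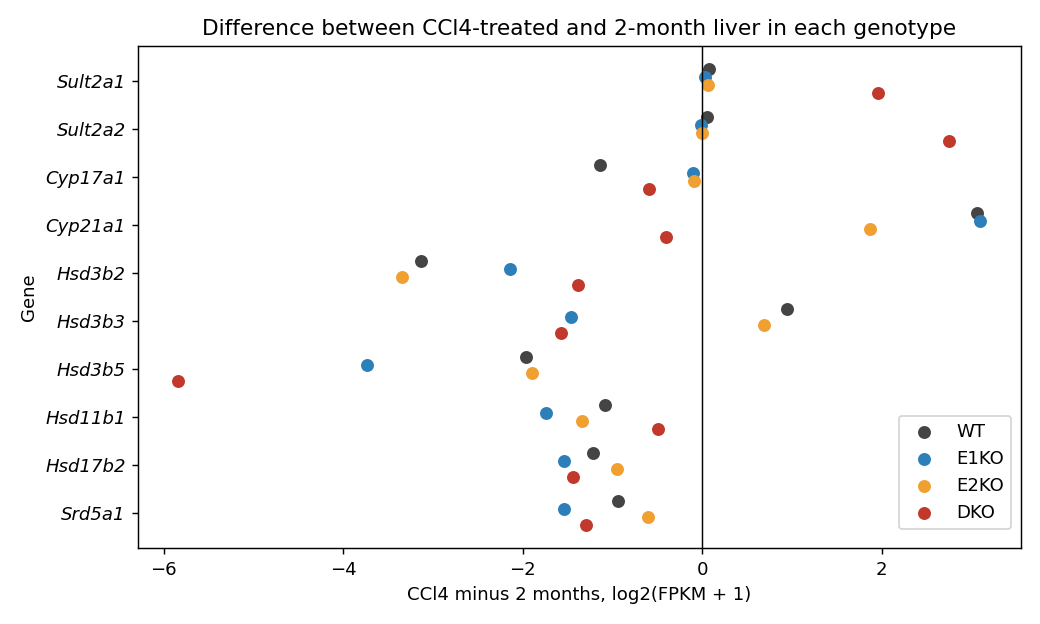
Difference between CCl4-treated and 2-month liver in log2(FPKM + 1) (x axis) for each of the 10 genes (y axis), 1 point per genotype and no error. Hsd3b2, Hsd3b5, Hsd11b1, Hsd17b2 and Srd5a1 are below 0 in all 4 genotypes, whereas Hsd3b3 is above 0 in WT and E2KO (0.94 and 0.69) and below 0 in E1KO and DKO (-1.46 and -1.57).

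The 3-beta-dehydrogenases had unlike values between genotypes in this comparison. The change of the DKO difference with CCl4 was not called for any of them, with an adjusted p of 0.268 for Hsd3b5, 0.435 for Hsd3b2 (1.49 ± 0.51) and 0.663 for Hsd3b3 (-1.63 ± 0.87). Hsd3b5 was 3.97-fold lower with CCl4 in WT and 3.77-fold lower in E2KO, but 14.0-fold lower in E1KO and 80.7-fold lower in DKO. Hsd3b2 was 9.86- and 11.6-fold lower in WT and E2KO, and 5.55- and 3.01-fold lower in E1KO and DKO, where it started from a lower level. Hsd3b3 was 1.94 and 1.62 times as high with CCl4 in WT and E2KO, and 2.78- and 3.01-fold lower in E1KO and DKO. Of all tested genes, 0.0439% had such opposite changes of at least 0.5 in the 2 pairs. Its change over the 4 genotypes was -0.35 ± 0.41 and was not called (adjusted p = 0.488).

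Cyp21a1 was higher with CCl4 in 3 of the 4 genotypes. It was 13.1 times as high in WT, 12.7 times in E1KO and 5.78 times in E2KO, and 2.07-fold lower in DKO. Over all 12 columns its limma change was 1.91 ± 0.79 (adjusted p = 0.0663). Without the DKO columns it was 2.68 ± 0.30 (adjusted p = 0.000511), where 30.8% of tested genes were called higher. That fit leaves out the genotype that went the other way, so it describes WT, E1KO and E2KO only. Cyp17a1 was 2.49-fold lower with CCl4 in WT and at 92.5% and 93.2% of its 2-month level in E1KO and E2KO, and its change of -0.48 ± 0.22 was not called (adjusted p = 0.0933).

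Marker levels moved with CCl4 as well. All 10 stellate cell markers and 9 of 11 immune markers rose, and of 11 hepatocyte markers 1 rose and 3 fell. Over all tested genes 33.4% rose and 24.5% fell. The hepatocyte list held 15 genes, of which 11 had values. The summed hepatocyte markers were 11128 to 20375 FPKM in the 8 untreated columns and 9839 to 17890 with CCl4, the summed stellate markers 81.1 to 199 and 278 to 393, and the summed immune markers 54.7 to 111 and 203 to 457, with no marker of these 3 lists at 0 in all columns. Cyp2e1, the P450 that activates CCl4, was 464 FPKM in WT, 151 in E1KO and 386 in E2KO with CCl4 but 3857 in DKO, against 3778 to 7466 in untreated liver. In bulk tissue fewer cells of a type and less RNA per cell cannot be told apart, and the part of these markers in the changes of the steroid genes was not tested.

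Between 2 and 8 months 1 of the 10 genes was called, Hsd17b2, where 1.59% of tested genes were called lower and 2.70% higher. It fell by 1.45 on the log2 scale (SE 0.12, adjusted p = 0.00139), and by 1.44 without the 8-month E1KO column (adjusted p = 0.00768). Its 4 columns at 8 months, 87.8 to 110 FPKM, lay wholly below those at 2 months, 204 to 336 FPKM, as was so for 5.79% of tested genes, and 0 of the 10 lay wholly above (6.31%). Hsd3b5 was the other gene with this order of columns, but its change of -2.74 ± 0.84 was not called (adjusted p = 0.101), with DKO departing from the other genotypes. Srd5a1 had a change of -0.63 ± 0.22 (adjusted p = 0.135).

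Neither single knockout gave a call among the 10 genes. In the limma fit 0 were called for E1KO against WT, with 1 (Hsd3b2) at an unadjusted p under 0.05, and 0 for E2KO against WT, with 0 at that unadjusted p. Of all tested genes 5.62% and 1.36% had an unadjusted p under 0.05 for E1KO and E2KO. By adjusted p 0.0176% were called higher and 0% lower for E1KO, and 0% either way for E2KO. Sult2a1 and Sult2a2 entered the fit only through the DKO columns and were at or near 0 in WT, E1KO and E2KO. For these genes the lack of a call is therefore no test. Cyp17a1 differed from WT by 0.07 ± 0.26 in E1KO and by -0.12 ± 0.26 in E2KO, errors that include the departure of the DKO columns from additivity.

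Related genes outside the 10 were counted from lists of the pathway. Among the sulfonation genes, Sult1e1, the estrogen sulfotransferase, was 32.8 FPKM in DKO at 8 months and 0.25 to 2.12 in the other 11 columns, so unlike the Sult2a genes it was not high in DKO at 2 months or with CCl4. The DKO difference of Sult1e1 was 4.45 larger at 8 months than at 2 months. It rests on 1 DKO column with an error from columns at low levels, as for Sult2a1, so it is given as a description. Sult2a4, Sult2a5 and Sult2a6 reached 1 FPKM only in DKO columns, so no call is counted for them. The tested sulfonation genes left were Sult2a7, 2810007J24Rik, Sult1e1, Papss1 and Papss2. Of these, 1 rose and 1 fell with CCl4, beside 33.4% and 24.5% of all tested genes. In this comparison Papss1, which makes the sulfate donor, was 0.76 higher (adjusted p = 0.000277) and 2810007J24Rik was lower (-2.20, adjusted p = 0.00049).

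The counts that follow are for CCl4 against 2 months and stand beside the same shares, 33.4% higher and 24.5% lower over all tested genes. Of 5 tested genes of steroid hormone synthesis, 2 fell with CCl4 and 0 rose, namely the electron carriers Fdx1 (-0.99) and Fdxr (-0.77). Hsd3b7, of bile acid synthesis, was the only other 3-beta-dehydrogenase tested and fell by 0.96 (adjusted p = 0.00141). Of 8 other 17-beta-dehydrogenases 4 rose and 2 fell, with Hsd17b13 at 0.75 and Hsd17b10 at -0.98. Of 11 other steroid reductases and 3-alpha-dehydrogenases 5 rose and 1 fell. Akr1c18, which inactivates progesterone, rose by 3.47 (adjusted p = 0.000108), from 0.05 FPKM in WT at 2 months to 22.7 with CCl4, and Akr1d1 fell by 0.63. Of 13 tested genes of glucocorticoid response 6 fell and 0 rose, among them Pck1 (-1.87), Tat (-1.42) and Per1 (-1.05). Of 14 tested genes of the growth hormone axis 6 fell and 0 rose, among them the receptor gene Ghr (-1.20) and Igfals (-1.14). Of 7 tested steroid and xenobiotic receptor genes 4 fell, among them Nr1i3 (-1.04), and Esr1 rose by 1.08. The median CCl4 change was -0.12 for the synthesis genes, 0.19 for the 17-beta-dehydrogenases, 0.39 for the reductases, -0.36 for the glucocorticoid genes, -0.40 for the growth hormone axis and -0.63 for the receptors, beside 0.07 over all tested genes. At 8 months against 2 months the calls in these lists were Hsd17b12 (0.41) and Nr1i3 (1.18), which rose, and Igfals (-0.79), which fell. No gene of these lists was called for E1KO or E2KO. In none of these 7 groups was a DKO difference called larger or smaller at 8 months or with CCl4 than at 2 months.

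The genes whose 12 values were most like those of 3 chosen members are given as a description, since columns share libraries and genotype. Across the 12 columns of log2(FPKM + 1), Sult2a1 was most like Sult2a2 (Pearson r = 0.987), Cldn7 (0.982), 1500016L03Rik (0.980) and Sult2a5 (0.978). Cyp17a1 was most like Pnliprp1 (0.940), Gpx6 (0.938), Adh6a (0.926) and Slc27a1 (0.921). Adh6a, an alcohol dehydrogenase gene, was 24.2 FPKM in DKO at 8 months and at most 0.30 in the 9 columns of the other genotypes. Hsd3b5 was most like Cmah (0.944), Plcxd2 (0.938), Klhl2 (0.919) and AI661453 (0.919), all of which varied over a narrower range than Hsd3b5 did.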

How the data were processed

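RNA-seq of mouse liver was deposited as 1 table of FPKM values, normalized by the authors to gene length and library size, with 22520 genes and 12 columns, 1 per group. The way in which the authors combined replicates is unstated in the labels. Per the submitters' processing notes, CASAVA, TopHat, Cufflinks, BWA, SICER and HOMER were used for the series with build mm9; no version is stated there. The 9 ChIP-seq samples are not analysed here. Whole reads could not be recovered, so sequencing depth stays unknown and counting intervals cannot be given.

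Values were taken as log2(FPKM + 1), and fold differences on that scale understate the change of low genes. The 11394 genes with 1 FPKM or more in 2 or more columns were fitted with limma 3.58.1 in R 4.3.3, with additive genotype and condition terms (6 residual degrees of freedom) and eBayes with a trend. A second fit added DKO-by-condition terms (4 residual degrees of freedom). These terms compare the change in DKO with the mean change of WT, E1KO and E2KO, not with that of WT alone. Adjusted p is Benjamini-Hochberg over all tested genes, two-sided, at 0.05, and 6 contrasts were tested. Both fits were tested on simulated data. Tested groups share control columns. The members and gene lists were chosen with earlier results of these data known. Named beside the members are list genes past the threshold, at most the 3 largest in each direction, and the 4 genes most correlated with Sult2a1, Cyp17a1 and Hsd3b5; the neighbouring genes, Sult1e1's and Adh6a's single values and Cyp2e1 were named after their values were seen. Alternatives were another pseudocount, column scaling, filter and trend setting, columns left out, and summed near-identical genes. Promoter windows are from RefSeq (GRCm38.p6), with coordinates of that assembly, which is not the table's build; alignments used Biopython 1.88.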

Additional observations from a re-analysis of the deposited data

Results flagged for a closer look

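The DKO difference of both sulfotransferase genes was larger at 8 months and with CCl4 than at 2 months in the deposited values. Measured from the mean of WT, E1KO and E2KO, the increase for Sult2a1 was 1.83 at 8 months and 1.90 with CCl4 on the log2(FPKM + 1) scale. For Sult2a2 it was 2.23 at 8 months and 2.74 with CCl4. The model called all 4, but this is no test of them: both genes entered the fit only through DKO, each DKO group is 1 column, and the error comes from columns near 0. All 4 calls were lost at a pseudocount of 0.1, with an adjusted p of 0.9997 and 0.490 for Sult2a1 and 0.608 and 0.210 for Sult2a2.

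Hsd3b3 moved in opposite directions with CCl4 by Ezh1 genotype. Against 2 months it was 0.94 higher in WT and 0.69 higher in E2KO, and it was -1.46 in E1KO and -1.57 in DKO, so the Ezh1-/- mean minus the intact mean was -2.33. This difference was not tested, and each value in it comes from single columns. Reads may also have been assigned to Hsd3b3 or to the similar Hsd3b2. The share of Hsd3b2 in their summed level in WT was 60.3% at 2 months and 7.35% with CCl4. Of the 11394 tested genes, 5 (0.0439%) had both pairs at least 0.5 apart from 0 in opposite directions.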

How the results depend on the processing

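The 10 calls among the members were 6 for CCl4 or age and 4 for the DKO differences of Sult2a1 and Sult2a2. They were recomputed under the alternatives, 92 values in all. Some of these values could hardly change, since summing 2 alike genes leaves the estimate of any other gene as it was. The 92 also include those of the Sult2a1 and Sult2a2 calls, which are no test. Of the 92, 88 kept direction and call, 4 kept direction and lost the call, and 0 reversed. The 4 are the DKO differences at a pseudocount of 0.1, where 0 members were called at 8 months and 0 with CCl4; the cause was not tested, and the report reads none of the 4 as a test. With Sult2a1 and Sult2a2 summed, 1 was called in each, by construction. Leaving out any genotype kept the 5 calls for CCl4, with Hsd3b5 between -3.85 and -2.53 and adjusted p of 0.00168 to 0.0386, and without DKO Cyp21a1 became the sixth. The number at least 2-fold different between DKO and WT at 8 months was 6 at a pseudocount of 0.1 and 5 otherwise. Upper-quartile scaling moved the median over all genes from -0.05 to 0.08 for DKO and from 0.07 to 0.11 for CCl4 and changed no count of members. No paired analysis was possible because each group has 1 column that merges its replicates. Unknown depth limits what the values near 0 FPKM can show.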

Other observations

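At the far end of the Hsd3b cluster, 2 genes were high in DKO liver at 2 months. Hao2, a hydroxyacid oxidase gene, was 27.1 FPKM in 2-month DKO liver, 4.51 in 8-month liver and 13.5 after CCl4, against 0.08, 2.74 and 0.04 in WT. Hsd3b1, the gonadal and adrenal form of the enzyme, was 2.20, 0.08 and 0.80 FPKM in DKO and at most 0.29 in the other 9 columns. Both were chosen after their values were seen, and neither difference was tested. Hsd3b4 was listed at 0 in every column.

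Some abundant 3-alpha- and 17-beta-dehydrogenases also differed in DKO liver, as values without a test. Akr1c6 was 776, 673 and 587 FPKM in DKO against 1115, 1509 and 1115 in WT in the same order of conditions, and DKO was the lowest genotype in each condition. After CCl4 Hsd17b6 was 668 FPKM in DKO and 211 in WT, and at 8 months 119 and 171. These were likewise chosen after their values were seen.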
